A study of Mus musculus with 12 samples.

Results

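The cytochrome P450 genes of the Cyp2, Cyp3 and Cyp4 families were described in primary mouse hepatocytes with and without TCDD, a dioxin that activates the aryl hydrocarbon receptor (AHR). Members were all genes whose symbol was Cyp2, Cyp3 or Cyp4 followed by a subfamily letter and a number, pseudogenes left out, and which had a probe set annotated to that symbol alone. This gave 51 of the 18193 genes measured, of which 35 were Cyp2, 5 Cyp3 and 11 Cyp4 genes. The probe set with the highest mean log2 value over all arrays stood for a gene. No measured difference entered the choice.

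Hepatocyte RNA of 12 mice was measured, per the design text 1 mouse on each Affymetrix expression array, with 3 arrays in each of 4 groups. Human AHR arrays, under TCDD or vehicle, came from a B6.Cg-Ahrtm3.1Bra strain with the transgenes Tg (Alb-cre, Ttr-AHR)1Ghp. In it the mouse Ahr gene is floxed, Cre is driven by the albumin promoter, and human AHR is driven by the transthyretin promoter, so that both act in hepatocytes above all. Wild type arrays, under TCDD or vehicle, were of the C57BL6/J strain, with the mouse receptor and none of these alleles. Cells of all 4 groups were kept for 48 h in Hepatozyme-SFM with 2.5% dimethyl sulfoxide, 10 nM dexamethasone, penicillin and streptomycin, and then received 10 nM TCDD or the dimethyl sulfoxide vehicle for 6 h. All 4 groups therefore carried dexamethasone, an agent that itself acts on several P450 genes. Genotype went with strain, transgenes and the mice used, and these cannot be told apart.

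Cytochromes P450 are haem enzymes of the endoplasmic reticulum that put an oxygen atom into their substrates, and the liver is their main site. The Cyp2 and Cyp3 families handle drugs, steroids and arachidonic acid, and the Cyp4 family hydroxylates fatty acids and eicosanoids at the end of the chain. Their genes are switched by ligand-dependent receptors: Cyp2b10 and several Cyp2c genes by the constitutive androstane receptor (CAR), Cyp3a11 by the pregnane X receptor (PXR) and Cyp4a genes by PPARA, whereas the classical AHR targets are Cyp1 genes. Several mouse P450 genes also differ by sex in liver.

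Signals are the deposited intensities rescaled to 1 common trimmed mean of 150 per array, and differences are on the scale of log2(signal + 16). Array medians lay between 16.5 and 23.5. Summed signals of the 5 measured hepatocyte markers lay between 36901 and 49771 on all arrays, and those of the 3 measured T and B cell markers at 39.7 or less. The mouse Ahr probe set read 193 to 236 in human AHR arrays and 223 to 617 in wild type arrays. No source used here says whether that probe set lies in the floxed part, so it does not check the genotype. Both wild type replicate 2 arrays stood apart. Xist, the RNA of the inactive X chromosome, read 2952 and 3085 there and 29.3 or less on the other 10 arrays, and the Y-linked Eif2s3y read 0.42 and 4.7 there and at least 453 elsewhere. Sex is not given in the labels. Results are therefore given with all 12 arrays and without these 2, a comparison chosen with earlier results of these data known.

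Of the 51 members, 34 lay among the brighter 60% of all genes and 17 among the dimmer 40%, where signals are close to background. The brighter members held 8 of 11 Cyp2c, 6 of 8 Cyp2d, 3 of 5 Cyp3a, 4 of 6 Cyp4f and 2 of 5 Cyp2j genes, Cyp2b10 and Cyp2b9 of the 4 Cyp2b genes, both Cyp4a genes, and 7 of the remaining 10. The dimmer ones were Cyp2b13, Cyp2b19, Cyp2c39, Cyp2c55, Cyp2c65, Cyp2d12, Cyp2d34, Cyp2g1, Cyp2j9, Cyp2j11, Cyp2j13, Cyp2u1, Cyp3a16, Cyp3a44, Cyp4f18, Cyp4f39 and Cyp4x1. A further 4 probe sets named several P450 genes each and were not used for members.

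Promoter windows of RefSeq (assembly GRCm38.p6, 250 bases before to 50 after the start) were found for 40 members, in 46 windows. In that annotation the members sit in clusters: Cyp2b genes on chromosome 7, Cyp2c on 19, Cyp2d on 15, Cyp2j on 4 and Cyp3a on 5. The windows of 4 members are shown because the array values below turn on them: Cyp2b10 and Cyp2b9, which shared the high wild type replicate 2 signal, Cyp2d9, which was low there, and Cyp2c37, the member with the smallest p between genotypes. They are all on the plus strand, at chr7:25897408-25897707 (Cyp2b10), chr7:26173159-26173458 (Cyp2b9), chr15:82452127-82452426 (Cyp2d9) and chr19:39992174-39992473 (Cyp2c37). Capitals mark matches, on either strand, to GCGTG (the core of the AHR response element), TTCNNNGAA (STAT5), AGGTCA (a binding site core of nuclear receptors) or TATAAA (the TATA box).
Cyp2b10: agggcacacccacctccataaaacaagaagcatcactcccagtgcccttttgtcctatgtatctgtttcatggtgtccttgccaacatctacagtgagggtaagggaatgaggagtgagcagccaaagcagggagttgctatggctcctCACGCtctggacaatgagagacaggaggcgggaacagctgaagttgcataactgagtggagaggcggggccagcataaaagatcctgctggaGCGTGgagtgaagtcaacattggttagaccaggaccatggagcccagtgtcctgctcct
Cyp2b9: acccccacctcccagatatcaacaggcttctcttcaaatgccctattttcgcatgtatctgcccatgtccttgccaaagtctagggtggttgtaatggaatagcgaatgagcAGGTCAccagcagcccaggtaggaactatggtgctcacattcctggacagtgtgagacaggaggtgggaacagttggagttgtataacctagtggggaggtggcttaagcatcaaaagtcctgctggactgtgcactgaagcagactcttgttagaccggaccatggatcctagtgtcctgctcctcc
Cyp2d9: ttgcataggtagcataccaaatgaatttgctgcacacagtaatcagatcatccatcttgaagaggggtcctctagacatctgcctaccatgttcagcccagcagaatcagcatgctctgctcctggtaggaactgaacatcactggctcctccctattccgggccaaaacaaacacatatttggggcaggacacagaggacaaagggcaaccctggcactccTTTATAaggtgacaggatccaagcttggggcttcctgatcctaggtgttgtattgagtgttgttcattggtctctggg
Cyp2c37: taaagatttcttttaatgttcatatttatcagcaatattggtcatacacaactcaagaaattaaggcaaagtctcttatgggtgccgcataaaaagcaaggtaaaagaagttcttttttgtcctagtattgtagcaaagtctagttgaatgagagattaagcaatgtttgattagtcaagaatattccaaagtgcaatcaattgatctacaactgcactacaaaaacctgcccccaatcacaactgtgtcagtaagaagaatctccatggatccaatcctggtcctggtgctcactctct

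Cyp2b10 held 2 GCGTG matches, 1 on each strand, Cyp2b9 held 1 AGGTCA match, Cyp2d9 held 1 TATAAA match on the minus strand, and Cyp2c37 held none of the 4 motifs. The Cyp2b10 and Cyp2b9 windows were 71.7% identical over 311 aligned positions, against 45.4% for Cyp2b10 and Cyp2d9. GCGTG stood in 10 of the 46 member windows (21.7%), belonging to 9 members, and in 32.4% of all 32851 windows. AGGTCA stood in 28.3% of member windows against 16.3% of all, TATAAA in 34.8% against 13.6%, and TTCNNNGAA in 6.52% against 8.30%. A match is a run of letters, not a bound site, and elements farther from the start lie outside these windows.

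Cyp2b10, the classical target of CAR in mouse liver, differed between the genotypes in the same way under TCDD and under vehicle, except on the wild type replicate 2 arrays. It read 580.4, 521 and 473 in human AHR cells under TCDD and 576, 420.5 and 562 in human AHR cells under vehicle (replicates 1, 2 and 3, as in all such lists). It read 137, 1402 and 172 in wild type cells under TCDD and 174, 1435 and 164 in wild type cells under vehicle. All 6 human AHR arrays lay between 420.5 and 580.4, above all 4 wild type arrays of replicates 1 and 3 (137 to 174) and below both wild type replicate 2 arrays, so the genotypes overlapped only through replicate 2.

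**Figure D1:**
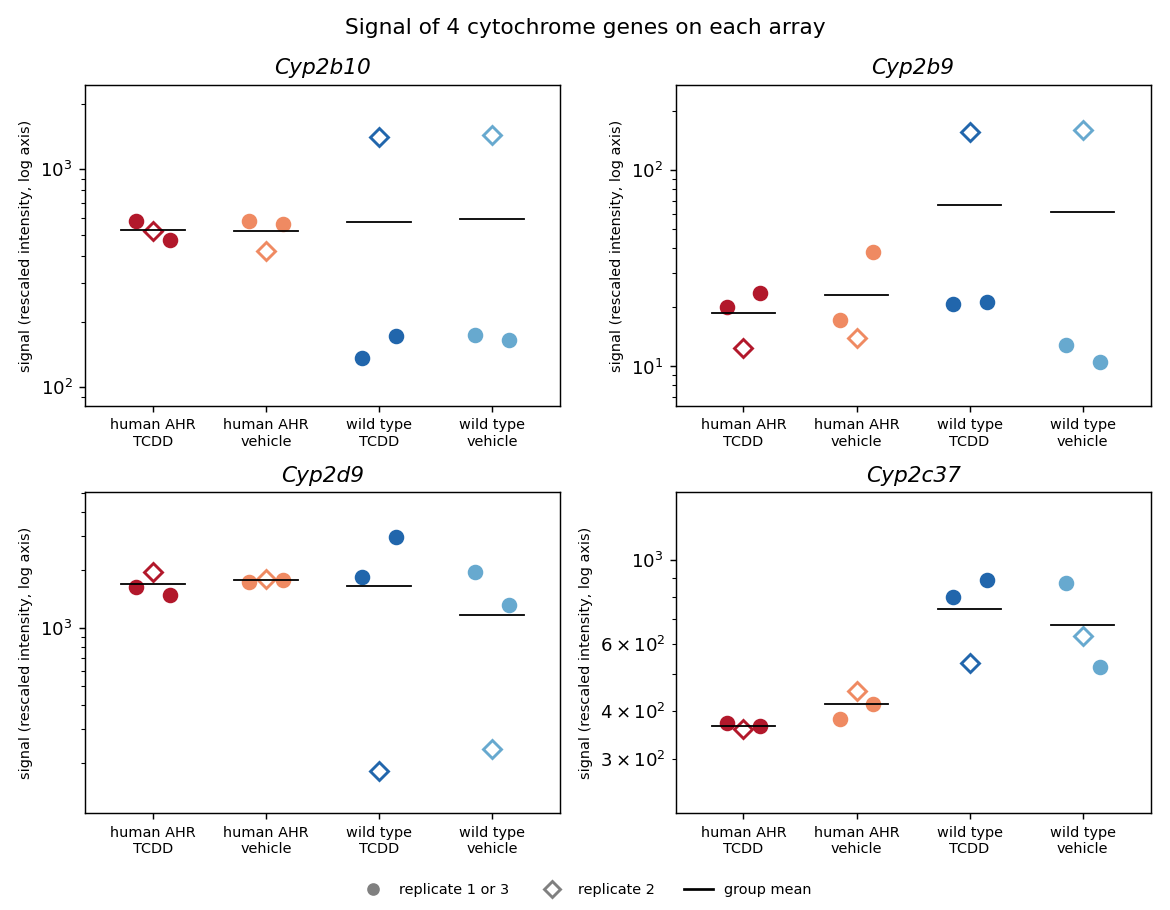
Signal of Cyp2b10, Cyp2b9, Cyp2d9 and Cyp2c37 (rescaled intensity, log axis) on each of the 3 arrays per group, with replicate 2 as open diamonds and group means as lines. The wild type replicate 2 arrays lie highest for Cyp2b10 and Cyp2b9 and lowest for Cyp2d9, and all 6 human AHR arrays lie below all 6 wild type arrays for Cyp2c37.

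Over all 12 arrays Cyp2b10 averaged 525 ± 53.8 in human AHR cells and 570.4 ± 720.4 in wild type cells under TCDD, and 519.6 ± 86.1 against 591 ± 731 under vehicle (SD, n = 3 each). The genotype difference over both treatments was 0.59 (95% confidence interval -0.63 to 1.81, limma adjusted p = 0.974). Without the 2 wild type replicate 2 arrays it was 1.59 (1.33 to 1.86, adjusted p = 0.000174), a 3.02-fold higher value of signal + 16 in human AHR cells. Cyp2b10 also passed without them under TCDD (1.67, limma adjusted p = 0.00474) and under vehicle (1.52, adjusted p = 0.0252).

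The further fits of Cyp2b10 all lacked the 2 wild type replicate 2 arrays, through which alone the genotypes overlapped, so they do not bear on that choice. The call over both treatments held in all 10 fits that left out 1 more array and in all 6 with another setting, with values from 1.43 to 1.69. Under TCDD it was lost in 1 of the 10 (without wild type TCDD replicate 1, limma adjusted p = 0.0522) and in 0 of the 6, and under vehicle it held in 3 of the 10 and 4 of the 6. The 2 other probe sets of Cyp2b10 gave the same order of arrays. The second read 313 to 438 in human AHR arrays, against 93.9 to 154 in the wild type arrays of replicates 1 and 3 and 1110.4 and 1296 in those of replicate 2. The third read 344 to 451 in human AHR arrays, against 98.2 to 130.2, and 1011 and 1125. Near relatives in the Cyp2b subfamily may bind the same probes, which was not tested.

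The other Cyp2b members did not share the human AHR level of Cyp2b10. Cyp2b9, a steroid hydroxylase that mouse liver makes mainly in females, read 20.0, 12.4 and 23.7 in human AHR cells under TCDD and 17.3, 13.9 and 38.4 under vehicle. The wild type values were 20.9, 157 and 21.4 under TCDD and 12.8, 161 and 10.5 under vehicle. The 6 human AHR arrays overlapped the wild type arrays of replicates 1 and 3, and replicate 2 lay 9.68 times above those wild type arrays. Without replicate 2 the genotype difference of Cyp2b9 was 0.17 (-0.27 to 0.61, limma adjusted p = 0.989).

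Cyp2b13, another female-biased member, read 1.2 to 9.1 in human AHR arrays and 1.5 to 6.39 in wild type arrays of replicates 1 and 3, with 39.8 and 25.3 in replicate 2 under TCDD and vehicle. Cyp2b19, known from mouse keratinocytes, lay between 3.1 and 17.9 on all 12 arrays with no order by group. Within Cyp2b, then, only Cyp2b10 passed the genotype test without replicate 2, while replicate 2 was high for 3 of the 4 genes.

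The wild type replicate 2 arrays were extreme for 17 of the 51 members. Both lay above all 10 other arrays for 8 members (15.7%): Cyp2b9, Cyp2b10, Cyp2b13, Cyp2c68, Cyp2d22, Cyp2r1, Cyp4a14 and Cyp4a31. Over all genes this held for 7.45%. Both lay below all others for 9 members (17.6%): Cyp2c23, Cyp2c29, Cyp2c70, Cyp2d9, Cyp2e1, Cyp2f2, Cyp2j5, Cyp3a11 and Cyp4f15, against 7.27% of all genes. Among brighter genes the shares were 20.6% of members and 11.5% of all genes above, and 26.5% of members and 11.0% of all genes below.

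**Figure D2:**
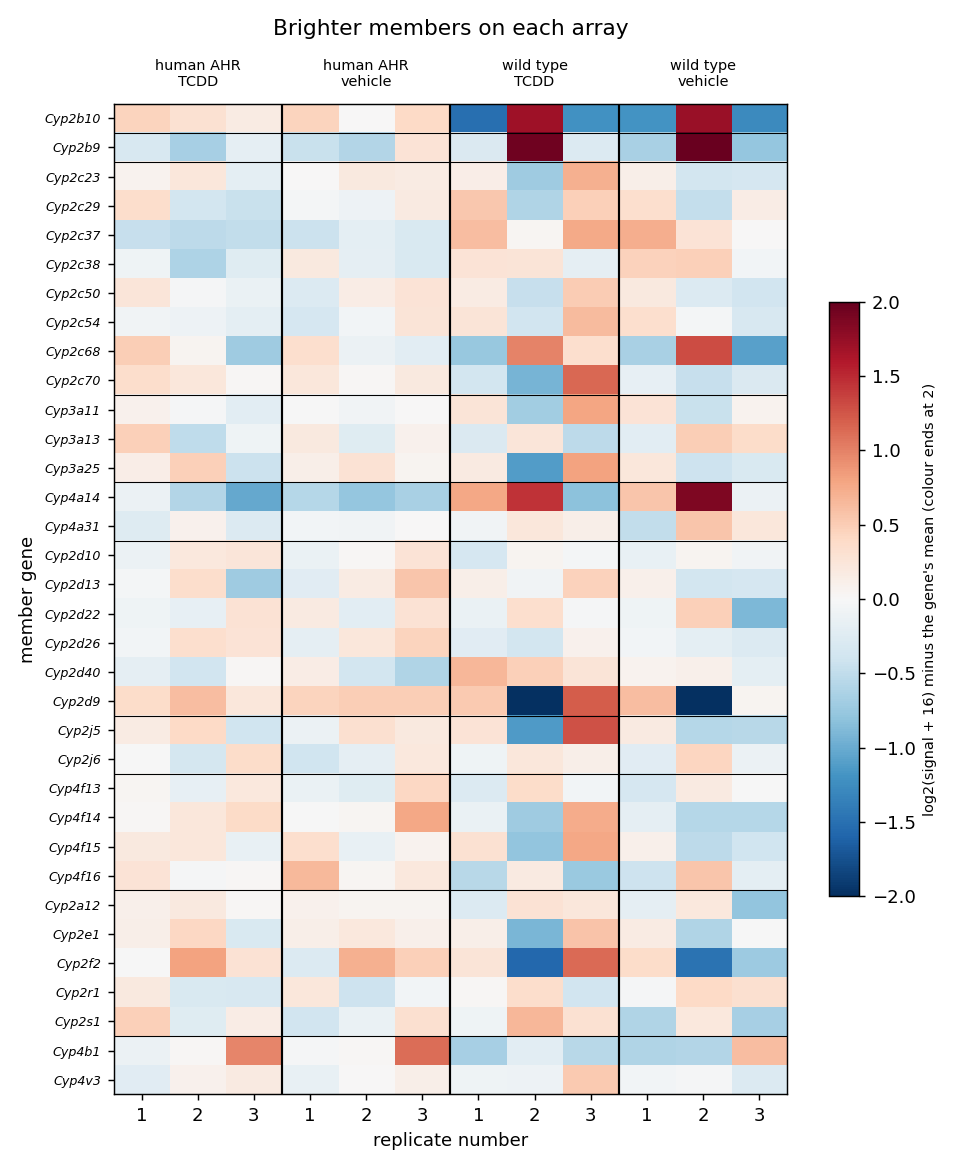
Log2(signal + 16) of the 34 brighter members minus each gene's mean over 12 arrays (red above, blue below), with arrays in columns by group and replicate and subfamilies between lines. The wild type replicate 2 columns carry the strongest colours, red for Cyp2b10, Cyp2b9, Cyp2c68 and Cyp4a14 and blue for Cyp2d9 and Cyp2f2, and the 6 human AHR columns are paler.

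Of these 17 members, Cyp2b13, Cyp2b9, Cyp2d9 and Cyp2b10 stood farthest from the other wild type arrays by the plain ratio of signals. The ratios were 10.1, 9.68, 9.61 and 8.77 times, and the next was 3.87 times for Cyp2f2. That of Cyp2b13 rests on a mean of 3.23 in the other wild type arrays, close to background, so its place in this order is not reliable. Cyp2b13, Cyp2b9 and Cyp2d9 were on the list of sex-biased mouse liver genes used here, which need not be complete. Cyp2d9, a male-biased testosterone hydroxylase, read 1634, 1961 and 1492 in human AHR cells under TCDD and 1726, 1797 and 1787 under vehicle. Wild type cells read 1842, 183 and 2968 under TCDD and 1946, 237 and 1313 under vehicle, so that only replicate 2 was low. Outside the members, the probe set shared by the female-biased Cyp3a41a and Cyp3a41b read 342 and 498 in wild type replicate 2 under TCDD and vehicle and 31.1 or less elsewhere. The male-biased Cyp4a12a read 4.26 and 1.6 there and at least 182 elsewhere. The part of sex in these values was not tested, and Xist moved with them as given above.

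Cyp3a44, also female-biased in mouse liver, was dim throughout, and its 16.1 and 11.7 on these arrays under TCDD and vehicle lay inside the 7.6 to 18.7 of the other 10. The female-biased Cyp3a16 was dim too, at 1.71 and 1.8 on these arrays and 0.2 to 7.26 on the other 10. The probe set shared by Cyp2a5 and the female-biased Cyp2a4 went the other way. It read 440 and 581 on these arrays, 591 to 1104 on the other wild type arrays and 258 to 1234 in human AHR arrays. Cyp2f2, which activates naphthalene, read 1707, 3026 and 2122 in human AHR cells and 2066, 572 and 3799.7 in wild type cells under TCDD. Under vehicle it read 1431, 2840.1 and 2396 in human AHR cells and 2229.7, 609 and 1041 in wild type cells. Its replicate 2 mean was 3.87 times below that of the other wild type arrays, with the rest overlapping between genotypes.

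Cyp2e1, the ethanol-metabolising form, read 7476, 9102 and 5573 in human AHR cells and 7450.2, 3637 and 10247 in wild type cells under TCDD, and 7478, 7899.6 and 7324 against 7688, 4529.8 and 6837 under vehicle. Replicate 2 held its 2 lowest wild type values, 1.97 times below the others. Cyp2j5, an arachidonic acid epoxygenase, read 399, 474 and 267 in human AHR cells and 433, 154 and 883 in wild type cells under TCDD, and 327, 449 and 409 against 404, 235 and 237 under vehicle. It was 2.52 times lower in replicate 2, although wild type vehicle replicate 3 was nearly as low. Cyp2j6 lay between 155 and 285 on all arrays. For Cyp2d22 the position depended on the probe set: its second one read 92.8 and 94.7 on these arrays, within the 67.6 to 117 of the other wild type arrays. The same held for Cyp4a31, whose second, very dim probe set read 13.1 and 1.3 there, against 0.84 to 5.88.

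The 11 Cyp2c genes encode enzymes of arachidonic acid, retinoid and drug oxidation. Cyp2c37, which oxidises arachidonic acid and is CAR-inducible, had lower signals on every human AHR array. It read 372, 359 and 366 in human AHR cells under TCDD, against 802, 536 and 887 in wild type cells. Under vehicle it read 381, 451 and 419 in human AHR cells, against 869.9, 630.5 and 522 in wild type cells. All human AHR arrays lay below all wild type arrays of the same treatment, replicate 2 included.

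The Cyp2c37 difference over both treatments was -0.80 (SE 0.14, -1.10 to -0.50, limma adjusted p = 0.173), lower in 6 of 6 human AHR arrays than in any wild type array. It was -0.96 under TCDD (adjusted p = 0.537) and -0.64 under vehicle (adjusted p = 0.965). Without replicate 2 it passed over both treatments, at -0.92 (limma adjusted p = 0.037), but in only 1 of 10 fits that left out 1 more array and 3 of 6 with another setting. The settings that ended the call were 1 common median for all arrays, no intensity trend, and same-numbered arrays as a random block (limma adjusted p = 0.102). It also passed with array weights (-0.82, adjusted p = 0.0300) and without wild type TCDD replicate 2 alone (-0.91, adjusted p = 0.0135). The direction was the same in all of these.

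The brightest Cyp2c probe sets showed no such split. Cyp2c29, an inducible epoxygenase, read 1902, 1149 and 1091 in human AHR cells and 2154, 977 and 2069 in wild type cells under TCDD, and 1447, 1376 and 1689 against 1868, 1062 and 1645 under vehicle. The 2 lowest of the 12 Cyp2c29 values were the wild type replicate 2 arrays, and the genotypes overlapped. Its difference over both treatments was -0.14 (-0.59 to 0.32) with all arrays and -0.44 (-0.76 to -0.12, limma adjusted p = 0.661) without replicate 2.

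Cyp2c50, likewise CAR-inducible, read 1544, 1279 and 1186 in human AHR cells and 1464, 939 and 1867 in wild type cells under TCDD, and 1074, 1446 and 1574 against 1491, 1074 and 999 under vehicle, and the genotypes overlapped (difference 0.08, -0.28 to 0.44). Cyp2c54 stood at -0.16 and Cyp2c38 at -0.41. Cyp2c70, which makes the muricholic acids of mouse bile, stood at 0.35, and Cyp2c68 at -0.05 with all arrays and 0.51 without replicate 2. Of the 11 Cyp2c genes, 5 lay above 0 and 6 below, with a median of -0.05, against 0.01 over all genes. Of the 6 members listed as CAR-linked, 2 lay above 0 with all arrays (Cyp2b10 and Cyp2c50) and 1 without replicate 2 (Cyp2b10), where Cyp2c50 stood at -0.09.

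The 5 Cyp3a genes encode the main steroid and drug hydroxylases. Cyp3a11, a PXR target and the main Cyp3a of mouse liver, read 6749, 6262 and 5472 in human AHR cells under TCDD and 6307, 6023 and 6362 under vehicle. It read 7612, 3902 and 11009.9 in wild type cells under TCDD and 7694, 4645 and 6679 under vehicle. The human AHR arrays covered a narrower range (5472 to 6749) than the wild type arrays (3902 to 11009.9), whose lowest values were the replicate 2 arrays. Its TCDD effect was -0.02 in human AHR cells (-0.65 to 0.61) and 0.15 in wild type cells (-0.48 to 0.78).

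Between genotypes Cyp3a11 differed by -0.08 (-0.53 to 0.37), and by -0.39 without replicate 2 (-0.65 to -0.13, limma adjusted p = 0.599). Cyp3a13 read 1696, 841 and 1133 in human AHR cells and 988, 1439 and 835 in wild type cells under TCDD, and 1392, 1018 and 1287 against 1045, 1702 and 1560.1 under vehicle, and its groups overlapped. Its TCDD effect was -0.06 in human AHR cells and -0.40 in wild type cells (-0.97 to 0.17). Cyp3a25 had a genotype difference of 0.22 (-0.36 to 0.79), which was -0.11 without replicate 2, and Cyp3a16 and Cyp3a44 were dim on every array, at 18.7 or less.

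The Cyp4a genes, PPARA targets that hydroxylate the end of fatty acids, had 2 members. Cyp4a14 read 62.3, 40.8 and 25.9 in human AHR cells under TCDD and 41.1, 33.9 and 38 under vehicle. It read 129.9, 217 and 32.2 in wild type cells under TCDD and 109, 294 and 62.2 under vehicle. Under vehicle all 3 human AHR arrays lay below all 3 wild type arrays, under TCDD the groups overlapped through wild type replicate 3, and the 2 highest values were again replicate 2.

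The Cyp4a14 difference over both treatments was -1.24 (-2.06 to -0.42, unadjusted p = 0.00614, limma adjusted p = 0.679), and -0.72 without replicate 2 (-1.37 to -0.07, adjusted p = 0.844). Cyp4a31 read 22.1, 32.4 and 21.9 in human AHR cells and 27.6, 37.4 and 33.6 in wild type cells under TCDD, and 28, 27.7 and 29.9 against 16.4, 50.8 and 37.2 under vehicle. The groups of Cyp4a31 overlapped, with a difference of -0.18 (-0.57 to 0.21). A probe set shared by Cyp4a31 and Cyp4a10, which is no member, read 344 to 547 in human AHR arrays and 493 to 1122 in wild type arrays.

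The first set of comparisons asked what TCDD does to these genes through each receptor. TCDD changed no member past the threshold in either genotype, while Tiparp passed it in both genotypes and Cyp1a1 in human AHR cells. Cyp1a1, which oxidises aromatic compounds, read 6624, 4004 and 6939 under TCDD and 81.9, 63 and 60.5 under vehicle in human AHR cells (6.09, limma adjusted p = 0.0424). In wild type cells it read 125, 2518 and 64.9 under TCDD and 25.3, 24 and 18.5 under vehicle (3.00, adjusted p = 0.966). All wild type TCDD arrays thus lay above all vehicle arrays for Cyp1a1, although the difference was not called. Tiparp, an AHR-induced ADP-ribosyltransferase, rose by 1.37 in human AHR cells and 1.30 in wild type cells (limma adjusted p = 0.00537 and 0.0192).

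In human AHR cells 0 of 51 members passed limma at an adjusted p of 0.05, against 4 of all genes (0.022%), and 0 members had an unadjusted p under 0.05, against 2.90% of all genes. Their effects ran from -0.42 for Cyp4x1 to 0.49 for Cyp2g1, both dim, with 18 above 0, 33 below and a median of -0.06, against -0.01 over all genes. All TCDD arrays lay below all vehicle arrays for 1 member, Cyp2c37, which read 372, 359 and 366 under TCDD and 381, 451 and 419 under vehicle (-0.18, -0.61 to 0.25). Such a gap occurred in 3.87% of all genes, and the opposite one in 0 members and 3.34% of all genes.

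Among the 34 brighter members the human AHR effects of TCDD ran only from -0.29 (Cyp2d13) to 0.20 (Cyp2s1). The 3 members of smallest p were dim. Cyp4x1 read 4.2, 0.50 and 2.0 under TCDD and 9.2, 15.6 and 1.9 under vehicle (unadjusted p = 0.0678, limma adjusted p = 0.999999). Cyp2g1 read 14.3, 11.5 and 4.9 against 1.5, 1.3 and 4.9 (unadjusted p = 0.0721), and Cyp2j11 7.9, 1.7 and 0.80 against 2.3, 3.8 and 23.3 (unadjusted p = 0.229), with limma p values in both cases. The TCDD and vehicle arrays of all 3 overlapped.

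In wild type cells 0 of 51 members passed limma, against 1 of all genes (0.0055%), and 1 member had an unadjusted p under 0.05 (1.96%), against 4.18% of all genes. It was Cyp2c39, a retinoic acid hydroxylase. In human AHR cells Cyp2c39 read 4.4, 10.1 and 18.7 under TCDD and 9.2, 15.2 and 5.3 under vehicle, with overlap (0.05). In wild type cells it read 7.47, 20.7 and 27.7 under TCDD and 3.1, 2.7 and 1.5 under vehicle (0.86, 0.32 to 1.41, limma adjusted p = 0.966). All its wild type TCDD arrays lay above the vehicle arrays, at signals of 27.7 or less.

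Wild type TCDD arrays lay wholly above vehicle arrays for 4 members (Cyp2c39, Cyp2d40, Cyp2j13 and Cyp4f18), against 6.18% of all genes, and wholly below for 0, against 2.82%. Cyp2d40 read 51.1, 42.8 and 34.7 under TCDD and 28.5, 29.4 and 21 under vehicle (0.47, -0.03 to 0.98). Cyp2s1, known as a dioxin-inducible P450, read 36.9, 16.2 and 26.1 under TCDD and 13, 18.5 and 31.4 under vehicle in human AHR cells (0.20, -0.46 to 0.86). Wild type cells read 19.6, 44.1 and 31 under TCDD and 8.9, 28 and 7.9 under vehicle (0.65, -0.01 to 1.31, limma adjusted p = 0.966). The groups overlapped in both genotypes, and the intervals reach up to changes of 0.86 and 1.31.

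The wild type effects of TCDD ran from -0.40 (Cyp3a13) to 0.86 (Cyp2c39), with 35 members above 0 and a median of 0.14, against 0.03 over all genes. Setting all arrays to 1 median moved the all-gene median to -0.11, and then 25 members lay above 0 and their median was -0.03. The sign of the members' median therefore depended on the scaling, while that median lay above the one of all genes under both scalings. Subfamily medians of the TCDD effect in human AHR cells were -0.10 for Cyp2c, -0.03 for Cyp2d, -0.06 for Cyp3a and -0.01 for Cyp4a. In wild type cells they were 0.17 for Cyp2c, 0.30 for Cyp2d, 0.12 for Cyp3a and -0.15 for Cyp4a.

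**Figure D3:**
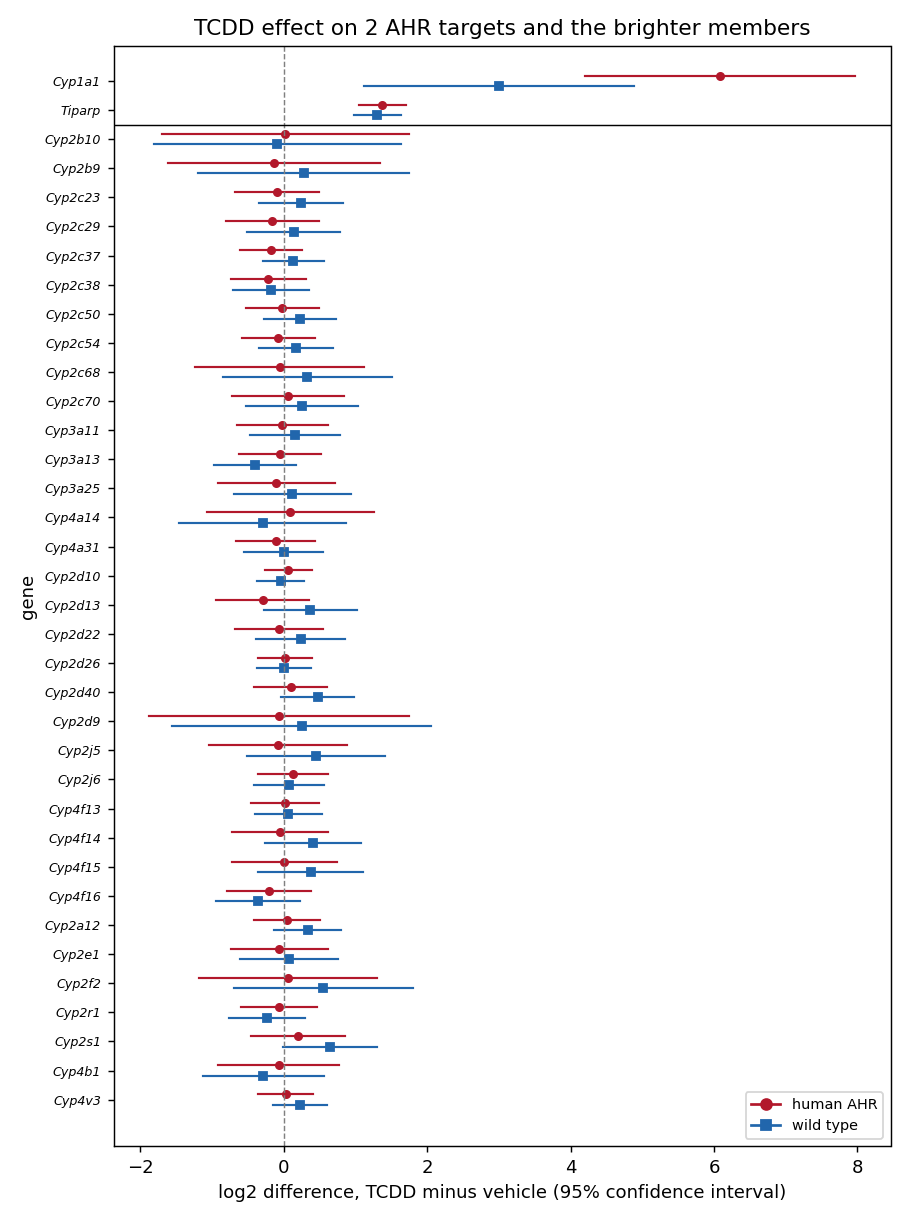
Log2 difference between TCDD and vehicle with its 95% confidence interval in human AHR (circles) and wild type cells (squares), for Cyp1a1 and Tiparp above the line and the 34 brighter members below it. Every interval of a member includes 0, and the widest belong to Cyp2d9, Cyp2b10 and Cyp2b9, whose wild type replicate 2 arrays stood apart.

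Cyp2b10 had a TCDD effect of 0.02 in human AHR cells and -0.09 in wild type cells. With all arrays the intervals were wide (-1.70 to 1.74 and -1.82 to 1.63). Without both wild type replicate 2 arrays, the highest for this gene, they were -0.31 to 0.36 and -0.54 to 0.29. These did not reach 1 log2 unit, but with all arrays a change of that size lay inside both intervals. The arrays were left out with their values known.

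The effects of TCDD in the genotypes were also set against each other. The test of the difference called 0 members and 0 of all genes (0%), and 1 member and 3.14% of all genes had an unadjusted p under 0.05. It was Cyp2c39 (-0.82, unadjusted p = 0.0396, limma adjusted p = 0.998), followed by the dim Cyp2d12 (-0.52) and by Cyp2d13 (-0.67, -1.58 to 0.25). All 11 Cyp2c genes lay below 0, with a median of -0.30 against -0.04 over all genes, as did 38 of 51 members. With all arrays set to 1 median, 8 of the 11 Cyp2c genes and 27 of 51 members lay below 0, and the median of all genes was 0.12. The Cyp2c genes share arrays, and no test was made of them as a group.

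Averaged over both genotypes, limma called 0 members and 4 of all genes (0.022%) with TCDD, and 2 members (3.92%) and 3.55% of all genes had an unadjusted p under 0.05. Cyp2c39 (0.46), Cyp4x1 (-0.32) and Cyp2d34 (0.31) had the smallest p there, and all 3 are among the dimmer genes.

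The second set of comparisons asked how human AHR cells differed from wild type cells under the same treatment. The TCDD comparisons above use these same arrays, so the sets are not independent. With all arrays, 0 of 51 members passed under TCDD, against 0 of all genes (0%), and 0 under vehicle, against 1 of all genes (0.0055%), which was Cyp1a2 (2.32, limma adjusted p = 0.0169). Over both treatments 0 members passed, against 4 of all genes (0.022%). At an unadjusted p under 0.05 there were 2 members under TCDD (3.92%), 3 under vehicle (5.88%) and 7 over both treatments (13.7%), against 4.11%, 4.23% and 5.33% of all genes. The 7 were Cyp2c37, Cyp2c38, Cyp4a14 and Cyp2d40, which stood below 0, and Cyp2d26, Cyp4f14 and Cyp4b1, which stood above it.

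Over all members the genotype difference had a median of -0.08 under TCDD, with 19 above 0 and 32 below, and of 0.14 under vehicle, with 35 above and 16 below. The medians over all genes were -0.01 and 0.03. With all arrays set to 1 median, 27 members lay above 0 under TCDD and their median was 0.04. Over both treatments the members' median was 0.05, with 29 above and 22 below, and without replicate 2 they split 26 to 25.

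Without both wild type replicate 2 arrays, Cyp2b10 was 1 of 2 genes called under TCDD (0.011% of all genes) and the only gene called under vehicle (0.0055%). Over both treatments Cyp2b10 and Cyp2c37 were 2 of 8 genes called (0.044%). They differed in opposite directions, Cyp2b10 higher and Cyp2c37 lower in human AHR cells. In that fit each wild type group holds 2 arrays.

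**Figure D4:**
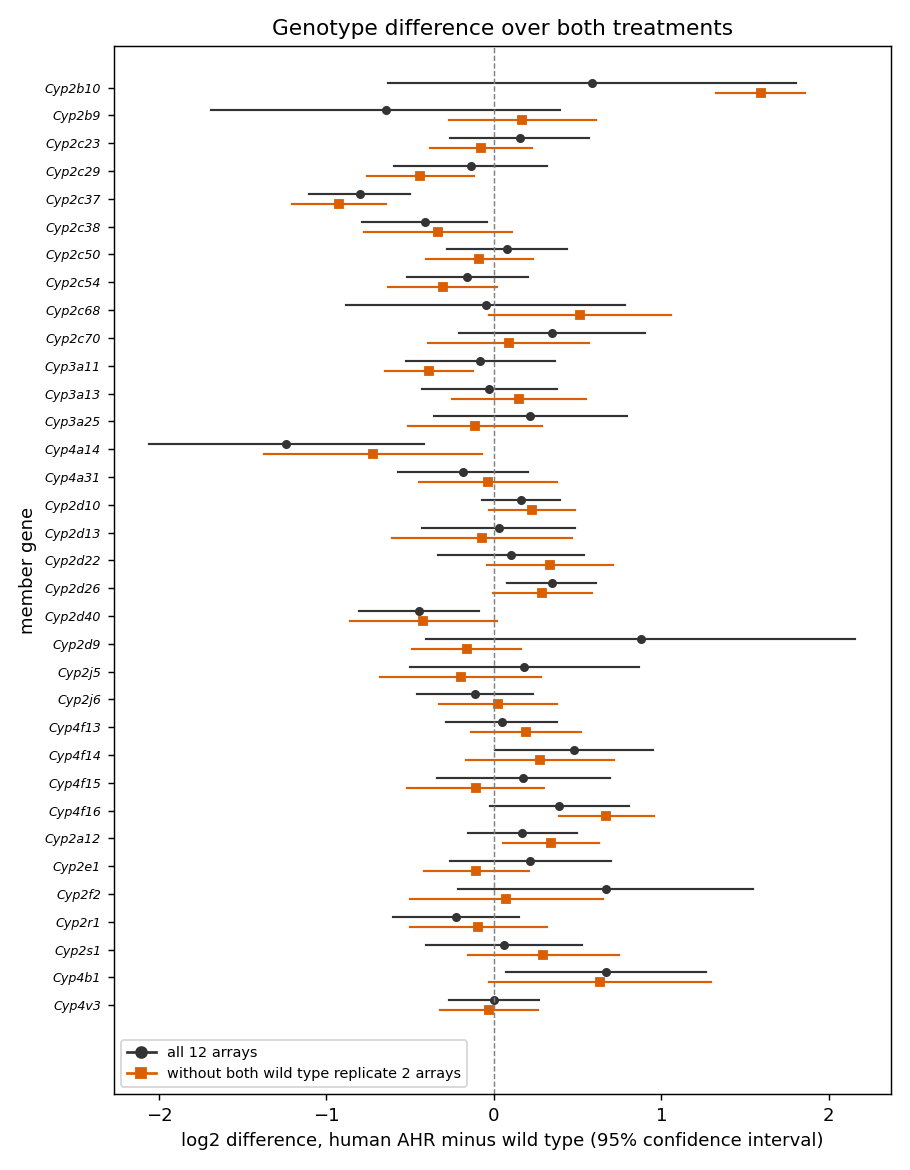
Log2 difference between human AHR and wild type cells over both treatments, with its 95% confidence interval, for the 34 brighter members, from all 12 arrays (circles) and without both wild type replicate 2 arrays (squares). The interval of Cyp2b10 lies at 1.33 to 1.86 without those arrays and includes 0 with them, and that of Cyp2c37 lies below 0 in both.

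Under TCDD all human AHR arrays lay above all wild type arrays for 2 members, Cyp2j13 and Cyp4b1, against 3.23% of all genes, and below for 2, Cyp2c37 and Cyp2d40, against 4.86%. Under vehicle they lay above for 4, Cyp2c39, Cyp2c70, Cyp3a16 and Cyp4f14, against 6.27%, and below for 3, Cyp2c37, Cyp3a44 and Cyp4a14, against 4.41%. The members' shares were 3.92%, 3.92%, 7.84% and 5.88%, near those of all genes. Cyp2c37 was the only member in both treatments' lists.

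Among the Cyp2d genes, Cyp2d26 read 1487, 1955 and 1875 in human AHR cells and 1325, 1197 and 1649 in wild type cells under TCDD, and 1363, 1828 and 2119 against 1495, 1355 and 1274 under vehicle. The genotypes overlapped, with a difference of 0.35 over both treatments (0.08 to 0.61, limma adjusted p = 0.835). Cyp2d40 read 21.5, 16.6 and 27.4 in human AHR cells under TCDD, below its wild type TCDD values given above (-0.64, -1.15 to -0.13, limma adjusted p = 0.999856). The Cyp2d9 difference was 0.88 with all 12 arrays and -0.16 without replicate 2, neither called. Cyp2d10 lay between 3694 and 5592 on all arrays (0.16, -0.07 to 0.39).

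In the Cyp4 family beyond Cyp4a, Cyp4f14, which inactivates leukotriene B4, read 185, 192 and 327 in human AHR cells and 162, 119 and 119 in wild type cells under vehicle, with no overlap (0.71, 0.04 to 1.38, limma adjusted p = 0.965). Under TCDD it read 189, 219 and 246 against 168, 107 and 320.1, with overlap. Cyp4b1 read 119, 133 and 272 in human AHR cells and 76.1, 109.7 and 83.3 in wild type cells under TCDD, and 127, 132 and 300.5 against 79.9, 80.7 and 208 under vehicle. Its human AHR replicate 3 arrays were the highest of the group in both treatments, and its difference over both was 0.67 (limma adjusted p = 0.924).

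Cyp4f16 stood at 0.39 with all arrays and 0.67 without replicate 2 (0.39 to 0.96, limma adjusted p = 0.228). A second, dimmer probe set of Cyp4f16 gave -0.11 over both treatments and -0.46 under vehicle, so the direction depended on the probe set. With the brightest probe set of each gene, all 6 Cyp4f genes lay above 0 under vehicle (median 0.21, against 0.03 over all genes), or 5 of 6 with all arrays set to 1 median, and 4 of 6 under TCDD. Cyp2a12, a bile acid hydroxylase, differed by 0.17, Cyp2e1 by 0.22, and Cyp2r1, which makes 25-hydroxyvitamin D, by -0.22. The 3 intervals were -0.16 to 0.50, -0.26 to 0.70 and -0.60 to 0.15.

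Most markers of Kupffer cells, the macrophages of the liver, averaged higher in human AHR cells, but the sum of all 7 overlapped between genotypes. Of 7 measured, 6 were higher in human AHR cells at an unadjusted limma p under 0.05, and 0 passed after adjustment. Summed over all 7 they read 1848 to 3743 in human AHR cells and 1855 to 4151 in wild type cells under TCDD, and 2062 to 4008 against 1921 to 3412 under vehicle. Without Cd68 the sum was 136, 321 and 559.8 in human AHR cells under TCDD and 122, 392 and 557 under vehicle, a sum chosen after the values were seen. In wild type cells it was 92.3 to 133 under TCDD and 97.0 to 143 under vehicle. Marco, a macrophage receptor, read 3.1 to 122 in human AHR arrays and 0.9 to 2.8 in wild type arrays.

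The human AHR replicate 1 arrays, with sums of 122 and 136 without Cd68, lay within the range of all wild type arrays. Those of replicates 2 and 3 lay above it. Cyp2b10 and Cyp2c37 values of the same arrays are given above. The part of Kupffer cells in the genotype results was not tested. In RNA of whole cultures, fewer cells of a type and less RNA per cell cannot be told apart. Of the other lists, 1 of 8 stellate cell, 0 of 6 endothelial, 0 of 4 bile duct and 1 of 3 T and B cell markers differed between genotypes at an unadjusted p under 0.05. Their sums over all arrays were 123 to 292 for stellate, up to 236 for endothelial and 533 to 1371 for bile duct markers.

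The receptors and partners of these enzymes showed no called change. Of 14 measured regulators of P450 genes, 0 passed in any of the 7 comparisons. Nr1i3, which encodes CAR, read 28.2, 34.4 and 16.2 in human AHR cells and 7.68, 16.7 and 46.3 in wild type cells under TCDD, and 20.2, 4.4 and 24 against 3.4, 27.3 and 8.1 under vehicle. It was dim and overlapped between groups, with a genotype difference of 0.19 (-0.41 to 0.78).

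Nr1i2, which encodes PXR, stood at -0.26 between genotypes (-0.82 to 0.31), and Ppara at -0.11 (-0.61 to 0.40). Both of these were highest on the wild type replicate 2 arrays, at 85.6 and 106 for Nr1i2 and 338 and 468 for Ppara under TCDD and vehicle. The regulators of smallest p were Nfe2l2, which encodes the NRF2 factor, with TCDD over both genotypes (0.53, limma adjusted p = 0.904), and Nr1h4, the bile acid receptor, between genotypes under vehicle (-0.76, adjusted p = 0.965). Of 12 measured genes for electron donors and haem synthesis, 0 passed, and the smallest p belonged to Cpox, a haem synthesis enzyme, with TCDD over both genotypes (0.57, limma adjusted p = 0.997).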

How the data were processed

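Per the design text and the submitters' processing notes, scans were preprocessed with GeneChip Operating Software, summarised by PLIER-MM (Expression Console 1.1) and tested by SAM, which was not run here. The authors' deposited intensity values, 45101 probe sets on each of 12 arrays, were linear, with a trimmed mean (2% off each end) of 150 on 9 arrays and 500 on the 3 wild type TCDD arrays. Every array was rescaled to 150, and log2(signal + 16) was used. Of the 45037 probe sets that are no controls, 34945 named 1 symbol.

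Group means over 12 arrays were fitted with limma 3.58.1 (R 4.3.3), with 8 residual degrees of freedom and eBayes with intensity trend, two-sided, with Benjamini-Hochberg adjustment over 18193 genes, a threshold of 0.05 and 95% intervals. The fit was tested on simulated data. Folds from the fit include the offset of 16, whereas ratios of replicate 2 to the other wild type arrays, given as times, do not. Arrays give no counts, and their number limits the precision. By the design text wild type cells had 3 mice per treatment, as did human AHR cells, and 0 pairs of arrays were identical.

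Alternatives were no offset or 50, quantile or median scaling, brighter genes only, the mean over probe sets, no trend, array weights, only the arrays compared, a replicate block, each array left out, and both wild type replicate 2 arrays left out, the last also with 1 further choice picked after seeing the data. Same-numbered human AHR arrays deviated together (r = 0.188 to 0.265, other numbers at most -0.0402), whereas wild type ones did not do so throughout (same numbers 0.0475 to 0.507, other numbers up to 0.282). This comes from the values, as the labels give no shared batch. The main fit took all arrays as independent. If same-numbered arrays shared a preparation, its p values for the genotype over both treatments may be too small. The members, lists and tests were chosen with earlier results of these data known. Every member could be named. Values of each array were given for Cyp2b10, the 2 brightest Cyp2b, Cyp2c, Cyp3a and Cyp4a members, and most of the 3 members of smallest p in a comparison (Cyp2d12, Cyp2d13 and Cyp2d34 by their differences only). Others followed by range or count, and Cyp2d9, Cyp2e1, Cyp2f2, Cyp2j5, Cyp4b1 and the sequences shown were picked after their values were seen. Sequences came from RefSeq (GRCm38.p6) and were matched by symbol. Python 3.11.15 and matplotlib 3.10.9 drew the figures.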

Additional observations from a re-analysis of the deposited data

How the results depend on the processing

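Of 639 alternatives to 28 single-member values, 618 kept direction and side of the threshold, 15 changed sign and 6 newly passed. None of the 28 was called in the main fit, and most were chosen for a small p in these data. Keeping direction and side therefore says little about how firm they are. All sign changes concerned TCDD effects, of Cyp2b10 and of Cyp2j11. For Cyp2b10 in human AHR cells the mean over probe sets gave -0.012, and leaving out 1 array gave -0.12 to 0.10. The ranges over single arrays left out were -1.12 to 0.90 for Cyp2b10 in wild type cells, -0.87 to 1.14 for the difference of its effects, -0.55 to 0.46 over both genotypes and -0.54 to 0.014 for Cyp2j11 in human AHR cells. The cause was not tested. The number of members called between genotypes was 0 with all arrays and 1 under TCDD, 1 under vehicle and 2 over both treatments without both wild type replicate 2 arrays. Over both treatments it was also 1 with array weights, and 0 to 1 when 1 array was left out, with 1 only without wild type TCDD replicate 2. With all arrays, the random replicate block (correlation 0.256) left 0 members called in all 7 comparisons, and so did the block fixed within genotype (4 residual degrees of freedom) in the 4 TCDD comparisons, the only ones it can estimate. Without both wild type replicate 2 arrays, the random block ended the Cyp2c37 call over both treatments (limma adjusted p = 0.102) and kept the 3 Cyp2b10 calls. Median scaling moved the median of all genes to -0.11 for TCDD in wild type cells. With 3 arrays a group, members with intervals wider than their effect, and the 17 dim ones, cannot be ordered.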
